A study of Mus musculus with 6 samples.

Results

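The imprinted Dlk1-Dio3 cluster of mouse chromosome 12 was followed through RNA sequencing of embryonic stem cells. Its members were chosen by name as the imprinted genes of the region, with the R783H-against-WT difference in these counts already known, so their differences are given as a description, with no test. They are 7 of the 27179 identifiers in the count table: the protein-coding genes Dlk1, Rtl1 and Dio3 and the non-coding RNAs Meg3, Rian, Mirg and Dio3os. All 7 were among the 14199 genes with enough counts to be tested. Dlk1 passed that filter only through its WT libraries and Dio3os only through its R783H libraries.

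The cells were E14TG2a mouse embryonic stem cells, grown on gelatin in medium with LIF and the inhibitors CHIR99021 and PD0325901 (2i). They carried Trim71, a TRIM-NHL protein that binds RNA, with a FLAG tag. In one group the tagged protein was wild type (WT) and in the other it had the R783H amino-acid change, so the tag, the background and the medium were common to both. Each group had 3 libraries of oligo(dT)-selected RNA, lettered A to C, in which order values of a group are listed, and the labels do not say whether a letter stands for a separate clone or culture. The p-values given here for other genes therefore measure only the spread between these libraries, which may be technical.

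An imprinted gene is transcribed mainly from the copy inherited from a single parent. In the Dlk1-Dio3 region the paternal copy carries methylation at an intergenic control region (IG-DMR) and expresses Dlk1, Rtl1 and Dio3, while the maternal copy lacks that methylation and expresses Meg3 (also Gtl2), Rian and Mirg from the same strand. Rian carries box C/D small nucleolar RNAs (snoRNAs) and Mirg carries many microRNA hairpins. In mouse embryonic stem cells, silencing of the maternal RNAs is a well-known variable feature of cultured lines. The counts do not separate the parental copies, so nothing here measures imprinting itself.

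The RefSeq promoter windows of the maternal RNAs and of Dlk1, the member that differed the other way, are printed first. They surround annotated starts, and where the RNAs start in these cells was not measured. Each is a 300-base RefSeq window (GRCm38.p6, the mm10 build that the submitters' processing notes name) around a transcript start, on the plus strand, 5′ to 3′. Capitals mark matches to the motifs searched on both strands: TGACGTCA, the cAMP response element that CREB-family factors bind; TATAAA; and TGCCGC, the hexamer that ZFP57 recognises when methylated. The windows are Meg3, chr12:109540746-109541045; Rian, chr12:109603695-109603994; Mirg, chr12:109734731-109735030; and Dlk1, chr12:109452573-109452872, around a start that lies inside the RefSeq span of Dlk1.
Meg3: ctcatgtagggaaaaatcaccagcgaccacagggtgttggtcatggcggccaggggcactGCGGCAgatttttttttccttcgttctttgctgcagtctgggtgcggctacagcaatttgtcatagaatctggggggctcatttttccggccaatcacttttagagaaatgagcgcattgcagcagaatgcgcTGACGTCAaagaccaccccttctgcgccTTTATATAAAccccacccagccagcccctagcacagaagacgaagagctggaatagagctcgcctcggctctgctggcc
Rian: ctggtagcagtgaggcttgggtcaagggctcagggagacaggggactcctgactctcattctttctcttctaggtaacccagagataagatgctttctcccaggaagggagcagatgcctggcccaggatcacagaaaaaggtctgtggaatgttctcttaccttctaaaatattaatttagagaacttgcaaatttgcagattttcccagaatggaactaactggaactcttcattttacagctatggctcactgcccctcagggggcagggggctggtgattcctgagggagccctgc
Mirg: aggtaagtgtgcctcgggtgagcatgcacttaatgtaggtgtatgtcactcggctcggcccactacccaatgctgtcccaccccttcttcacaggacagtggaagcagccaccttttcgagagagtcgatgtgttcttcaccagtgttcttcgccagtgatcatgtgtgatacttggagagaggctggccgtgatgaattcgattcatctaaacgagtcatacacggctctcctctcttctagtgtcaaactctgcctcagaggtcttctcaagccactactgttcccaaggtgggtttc
Dlk1: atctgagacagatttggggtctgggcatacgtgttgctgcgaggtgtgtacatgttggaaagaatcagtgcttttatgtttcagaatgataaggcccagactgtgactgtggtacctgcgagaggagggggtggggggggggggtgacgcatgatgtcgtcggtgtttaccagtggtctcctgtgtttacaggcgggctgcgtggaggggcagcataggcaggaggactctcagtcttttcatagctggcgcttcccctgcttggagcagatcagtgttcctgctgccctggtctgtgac

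Meg3 was the member of this set whose window held matches. Its TGACGTCA lay 57 bases upstream of the start, and 1.79% of 32851 RefSeq promoter windows of this length hold that motif. A TATAAA match lay 25 bases upstream and overlapped a match on the other strand 29 bases upstream, with such a match in 13.6% of all windows. A match to the ZFP57 hexamer lay 190 bases upstream, and 11.6% of all windows hold it. Windows of Rian, Mirg and Dlk1 held none of these letters, and neither did that of Dio3os or a downstream Meg3 start; the Dio3 window (chr12:110278980-110279279) held TATAAA 31 bases upstream. The Rian window contained 0 CpG dinucleotides, against 13 in that of Meg3, 10 in that of Mirg, 9 in that of Dlk1, 25 in that of Dio3 and 53 in that of Dio3os; the median over all windows was 7.0. These matches are descriptions of the sequence and not of binding. A promoter entry for Rtl1 was not used here.

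Another set of sequences concerns Rtl1. Of the 58 annotated microRNA hairpins between Dlk1 and Dio3, 6 lie on the strand opposite an Rtl1 exon, so the microRNAs from the maternal copy are complementary to the Rtl1 mRNA and are known to direct its cleavage. The following mature microRNAs (RefSeq, seed bases 2 to 8 in capitals) are printed because they are that antisense link between the maternal and the paternal transcripts.
mmu-miR-431-5p: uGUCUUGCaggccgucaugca
mmu-miR-433-3p: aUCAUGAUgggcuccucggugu
mmu-miR-127-3p: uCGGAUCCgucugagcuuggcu
mmu-miR-434-3p: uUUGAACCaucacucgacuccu
mmu-miR-136-5p: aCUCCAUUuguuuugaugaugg

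The 11 mature sequences of these 6 hairpins have 11 distinct seeds. All 6 hairpin rows were listed at 0 counts in all 6 libraries. Libraries of oligo(dT)-selected RNA do not measure mature microRNAs, so the counts bear on the host transcripts and not on the microRNAs printed here.

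Library totals ran from 20894277 to 29079670 counts, and each R783H library was deeper than each WT library. A count of 3 corresponded to 0.0998 to 0.149 CPM (counts scaled to a common library depth with edgeR's TMM factors), and this is the floor used below. Trim71 itself did not separate the groups (R783H libraries had 4558, 3660 and 4457 counts, WT libraries 2642, 3218 and 3400; log2 difference 0.03 ± 0.08, SE), and its counts do not show the amino-acid change. The summed level of 9 naive stem-cell markers was 7118 to 7268 CPM in the R783H libraries and 7230 to 7310 CPM in the WT libraries. By edgeR's test 3 of the 9 were higher and 3 lower, against 33.5% and 30.9% of all tested genes. For fibroblasts, which also express Meg3, the summed level of 8 markers was 3.21 to 4.26 against 4.03 to 4.80 CPM. Col3a1, Postn, Lum and Dcn were under 1 CPM in every library. Thy1 was lower in R783H (log2 difference -2.74, at 0.0665, 0.247 and 0.270 CPM against 1.24, 1.39 and 1.31 CPM in WT). It made most of the difference in the fibroblast sum. Col1a1 (-0.45), Col1a2 (0.38) and Pdgfra (0.37) went both ways and were not called. Marker sums of other lineages differed: primitive endoderm (7 genes; Gata6, Sox7 and Foxa2 under 1 CPM in every library) 10.3 to 11.1 against 5.18 to 7.62 CPM (most of it Gata4, which rose; Sox7 had 9 counts in the R783H libraries together and 43 in the WT libraries), mesoderm (7 genes; Mesp1, Tbx6 and Hand1 under 1 CPM) 37.5 to 42.5 against 63.0 to 67.4 CPM, trophoblast (6 genes; Elf5, Hand1, Plac1 and Prl3d1 under 1 CPM, 1 of them without a count) 11.5 to 12.8 against 28.9 to 31.5 CPM, and neural (6 genes; Pax6 and Neurod1 under 1 CPM) 83.9 to 91.4 against 116.9 to 121.8 CPM. The neural sum was mostly Tubb3, which fell along with Neurod1, whereas Sox1 and Map2 rose. The part of these markers in the results below was not tested.

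All 3 maternally expressed RNAs were higher in the R783H libraries, Meg3 4.20-fold, Rian 3.09-fold and Mirg 2.76-fold. The rows of the paternally expressed genes did not share a direction: Dlk1 was 2.81-fold lower, Rtl1 was 1.57-fold higher, and the Dio3 groups overlapped. The Rtl1 counts may include RNA of the opposite strand. Dio3os, on the strand opposite Dio3, was 2.83-fold higher at a few counts per library. The maternal RNAs made up 96.3% of all counts of the 7 members. In these bulk samples, more cells that express a gene and more RNA per cell cannot be told apart.

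Meg3 (chr12:109540996-109571729, plus strand) is a long non-coding RNA that starts near the control region. Its level was 123.4, 86.9 and 119.9 CPM in R783H and 26.9, 25.2 and 26.6 CPM in WT. The lowest R783H library thus lay far above the highest WT library, and the R783H libraries were spread more widely than the WT libraries. The means were 110.0 ± 20.2 CPM (SD, n = 3) and 26.2 ± 0.874 CPM (SD, n = 3), and the log2 difference fitted by edgeR was 2.07 ± 0.12 (SE).

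Rian (chr12:109603945-109661716, plus strand), the snoRNA host, was the most abundant member in CPM. It stood at 127.6, 102.8 and 128.6 CPM in R783H against 37.6, 39.9 and 38.8 CPM in the WT libraries, again without overlap. The means were 119.7 ± 14.7 and 38.8 ± 1.13 CPM (SD, n = 3 each), a log2 difference of 1.63 ± 0.08 (SE). Mirg (chr12:109734981-109749458, plus strand), the microRNA host farther downstream, measured 10.1, 8.53 and 10.1 CPM in R783H and 4.26, 3.14 and 3.05 CPM in WT. Its log2 difference was 1.47 ± 0.14 (SE), from means of 9.56 ± 0.891 and 3.48 ± 0.674 CPM (SD, n = 3 each).

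Library R783H B was the lowest R783H library in each of the maternal RNAs. Its deviation from the group mean in log2 CPM was -0.324 for Meg3, -0.212 for Rian and -0.159 for Mirg. Without it the log2 difference of Meg3 was 2.19 and that of Rian 1.70. In WT, library A was the highest for Mirg (0.301) but not for Rian (-0.043). Outside the region, R783H B was also the lowest R783H library for Atrx (215.1 CPM, against 300.0 and 302.8 in R783H A and C). For Trim28 it was the highest (2039 CPM, against 1862 and 1842). A low R783H B was thus not particular to the maternal RNAs.

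**Figure D1:**
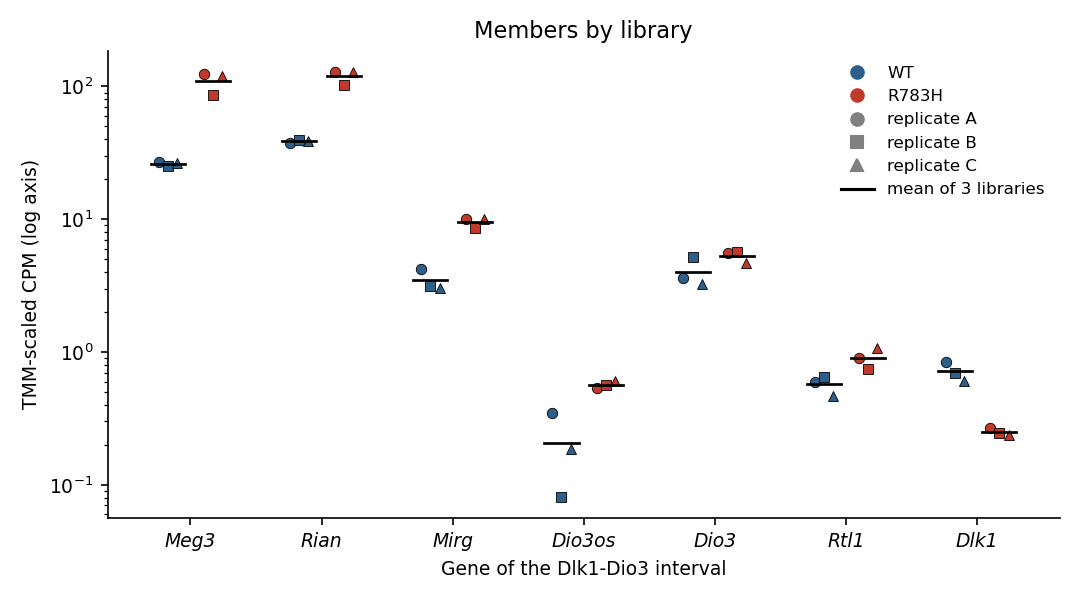
TMM-scaled CPM on a log axis of each member in the 3 WT libraries and the 3 R783H libraries; each point is a library, its shape the replicate letter, and the bar is the group mean. Meg3, Rian and Mirg lie higher in every R783H library, Dlk1 lies lower, and the Dio3 groups overlap.

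The maternal RNAs did not differ by the same factor. The ratio of their counts within a library, which no scaling between libraries enters, shows this directly. Per 100 counts of Meg3, Rian had 103.4, 118.3 and 107.3 counts in R783H and 140.0, 158.0 and 146.0 in WT, means of 109.7 ± 7.72 against 148.0 ± 9.18 (SD, n = 3 each). Mirg had 8.79 ± 0.898 counts per 100 of Meg3 in R783H and 13.3 ± 2.30 in WT (SD, n = 3 each), without overlap. Relative to Rian, by contrast, Mirg overlapped between the groups, at 8.01 ± 0.254 and 9.01 ± 1.99 per 100 counts of Rian. So Meg3 stood out from Rian and Mirg, and Mirg did not separate from Rian.

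**Figure D2:**
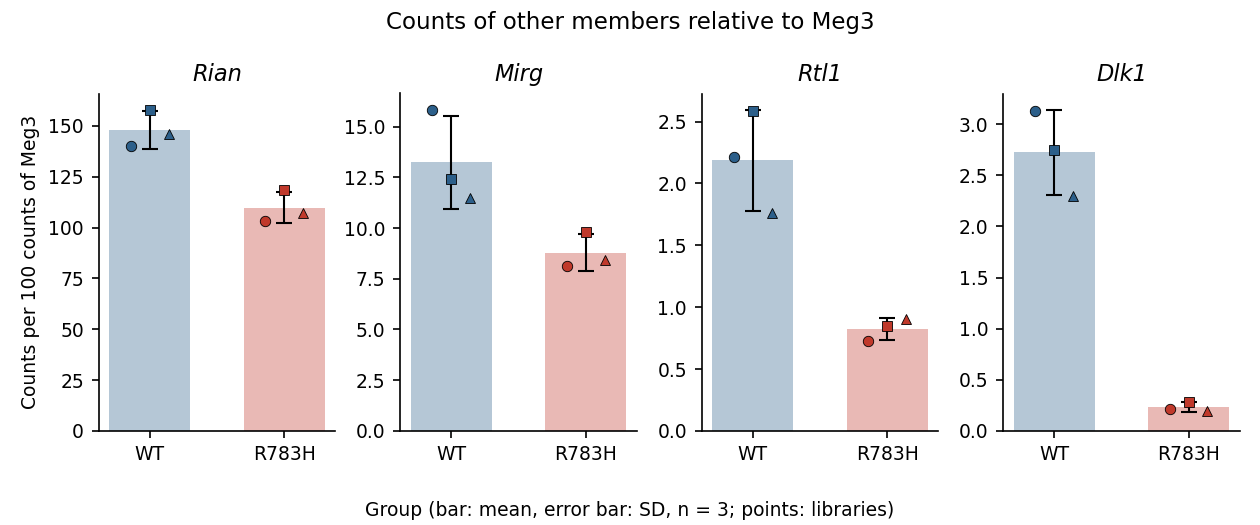
Counts of Rian, Mirg, Rtl1 and Dlk1 per 100 counts of Meg3 in the same library, by group; bars are means, error bars SD (n = 3), points libraries with the replicate letters as shapes (circle A, square B, triangle C). All R783H points lie below all WT points in each panel, from 2.72 to 0.232 on average for Dlk1. Meg3 had the largest log2 difference of the members, so a fall in each ratio to it follows from that.

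The log2 difference moved with transcript length over the tested genes. Across tested genes in 10 equal bins of transcript length, the median log2 difference ran from -0.160 in the shortest bin to 0.311 in the longest (6690 nt or more), and the longest Meg3 transcript has 14548 nt, that of Rian 8089 nt and that of Mirg 3822 nt. The GC fraction of these transcripts was 0.49 for Meg3, 0.36 for Rian and 0.52 for Mirg. With an offset for length and GC content in each library, the log2 difference of Meg3 was 1.69, that of Rian 1.29 and that of Mirg 1.42. The offset fits length and GC content together, so the part of each was not tested. With the offset Meg3 remained the highest of the maternal RNAs, and Rian lay below Mirg. Among the 444 long non-coding RNA genes tested, 152 rose and 60 fell (edgeR's quasi-likelihood test, Benjamini-Hochberg adjusted p under 0.05), which is 34.2% and 13.5% against 33.5% and 30.9% of all tested genes, with a median log2 difference of 0.29 against 0.03 over all genes tested.

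Dlk1 (chr12:109452485-109463336, plus strand) encodes a transmembrane non-canonical Notch ligand of progenitor cells. It had 8, 7 and 7 counts in R783H and 17, 17 and 13 counts in WT. Each R783H library was lower although it was sequenced more deeply. In CPM the values were 0.266, 0.247 and 0.236 against 0.842, 0.693 and 0.609, means of 0.250 ± 0.0152 and 0.715 ± 0.118 (SD, n = 3 each). The log2 difference was -1.49 ± 0.31 (SE), at a level near the floor of 3 counts. Per 100 counts of Meg3, Dlk1 had 0.232 ± 0.0457 counts in R783H and 2.72 ± 0.420 in WT, a ratio that includes the rise of Meg3.

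Rtl1 (chr12:109564900-109604418, minus strand) is a retrotransposon-derived gene needed in the placenta. Its counts were 27, 21 and 32 in R783H and 12, 16 and 10 in WT. The groups did not overlap in CPM (0.898, 0.740 and 1.08 against 0.594, 0.652 and 0.469), but WT B and R783H B lay close together. The log2 difference was 0.66 ± 0.27 (SE). Relative to Meg3, which rose more, it went from 2.19 ± 0.411 in WT to 0.827 ± 0.0893 counts per 100 of Meg3 in R783H. The RefSeq span of Rtl1 overlaps the end of Meg3 and the start of Rian on the opposite strand. The 6 microRNA hairpins described above also lie on that strand, opposite an Rtl1 exon. In GENCODE, exons of Rtl1 share bases with microRNA entries and not with exons of Meg3 or Rian. The sources used here do not give the annotation of the counting or say whether it used strand. Reads from the 2 strands thus cannot be told apart in the span of Rtl1. The Rtl1 counts may thus include RNA of the opposite strand, which was not tested.

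Dio3 (chr12:110279230-110281097, plus strand), the deiodinase that inactivates thyroid hormone, overlapped between the groups. It stood at 5.56, 5.67 and 4.66 CPM in R783H and at 3.61, 5.22 and 3.23 CPM in WT. WT B lay above R783H C, and the WT spread was the larger (4.02 ± 1.05 against 5.30 ± 0.555 CPM, SD, n = 3 each). The log2 difference of 0.38 ± 0.17 (SE) became 0.63 without WT B and 0.24 without WT C, so WT libraries decide its size. Dio3os (chr12:110275384-110278068, minus strand), a non-coding RNA divergent from Dio3, had 16, 16 and 18 counts in R783H and 7, 2 and 4 in WT. WT B was under the floor of 3 counts. Its log2 difference of 1.50 ± 0.42 (SE) ranged from 1.08 without WT B to 2.07 without WT A. Counts of Dio3os per 100 of Dio3 overlapped (10.9 ± 1.90 in R783H, 5.65 ± 4.02 in WT; SD, n = 3 each).

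Read against all genes, this contrast was a broad one. Of the 14199 genes tested, 64.5% passed an adjusted p under 0.05, 33.5% higher and 30.9% lower in R783H. The R783H and WT libraries did not overlap in 6 of 7 members and in 68.1% of all tested genes. A log2 difference of at least 1 in size was seen in 5 of 7 members and in 9.24% of tested genes, and such a difference upward in 4 of 7 members and in 6.03% of tested genes. The members were chosen with this contrast in view, so nothing is read from these shares.

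**Figure D3:**
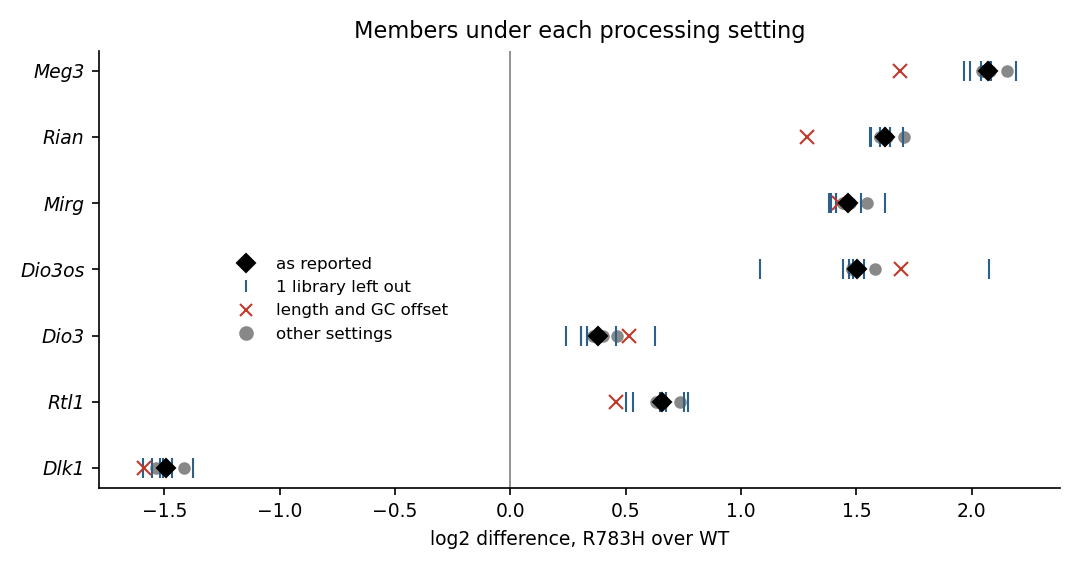
log2 difference (R783H over WT) of each member as reported (diamond), with 1 library left out (vertical ticks), with the length and GC offset (cross) and in the other settings (grey points). No member changes sign; the offset moves Meg3 from 2.07 to 1.69 and Rian from 1.63 to 1.29, and single WT libraries move Dio3os between 1.08 and 2.07.

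Levels between genes were compared per length. Per kb of the longest transcript, WT levels were 4.79 ± 0.139 CPM/kb for Rian, 1.98 ± 0.519 for Dio3, 1.80 ± 0.0601 for Meg3, 0.911 ± 0.176 for Mirg, 0.154 ± 0.0253 for Dlk1, 0.149 ± 0.0967 for Dio3os and 0.0899 ± 0.0148 for Rtl1 (SD, n = 3). The neighbours Dio3 and Meg3, Dlk1 and Dio3os, and Dio3os and Rtl1 did not differ beyond their spread. In R783H the order was Rian (14.8 ± 1.81 CPM/kb), Meg3 (7.57 ± 1.39), Dio3 (2.61 ± 0.273), Mirg (2.50 ± 0.233), Dio3os (0.412 ± 0.0274), Rtl1 (0.143 ± 0.0268) and Dlk1 (0.0537 ± 0.00326), with Dio3 and Mirg within their spread. Dlk1 was thus last in R783H, whereas in WT its place was not separated from that of Dio3os beyond their spread. Per kb of the union of all annotated exons, Rian (6.56 ± 0.804 CPM/kb) and Meg3 (6.08 ± 1.11) no longer differed beyond their spread in R783H. By that length Dio3 (2.61 ± 0.273) lay above Mirg (1.31 ± 0.122) in R783H. In WT, Rian (2.13 ± 0.0618) and Dio3 (1.98 ± 0.519) did not differ beyond their spread. The order thus depends on the length used.

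The small-RNA rows inside the region gave few counts. The 58 microRNA rows held 57 counts in the R783H libraries together and 17 in the WT libraries, spread over 23 rows. Their summed level was 0.665, 0.423 and 0.844 CPM in R783H and 0.149, 0.163 and 0.469 CPM in WT, so R783H B lay below WT C. Mir3072, in an exon of Mirg, was the microRNA row with at least 10 counts, with 9, 3 and 10 counts in R783H and 1, 1 and 4 in WT. The 7 snoRNA rows held 382 counts against 108.

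Most of the snoRNA counts fell on AF357359 (chr12:109650709-109650738), a 30-nt entry inside an exon of Rian. It had 126, 81 and 126 counts in R783H and 29, 36 and 34 in WT, with R783H B again the lowest of its group. Its log2 difference was 1.33 ± 0.19 (SE), given without a test because its reads cannot be told apart from those of the host exon. The other 6 snoRNA rows held 49 counts in R783H and 9 in WT. Of these, AF357426 had 11 against 5 counts, DQ267100 11 against 2 and DQ267102 12 against 1, too few to be tested.

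Shared exons limit these counts. Snrpn and Snurf, imprinted genes that share exons, were both listed at 0 in all 6 libraries, and how the authors' counting treated shared exons is not given in the sources used here. Among the members, 6.79% of the exon sequence of Meg3 (1228 nt) is shared with the antisense gene Gm26906 in GENCODE, and Rian, Mirg, Rtl1 and Dio3os share stretches with small-RNA entries.

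Genes outside the interval from Dlk1 to Dio3 were used as a comparison. Of the 10 nearest tested genes before Dlk1, 2 rose and 4 fell (60.0% called, against 64.5% of all tested genes). Their median log2 difference was -0.19, and it was -0.29 when R783H C was left out, -0.09 when R783H B was left out and -0.04 with the length and GC offset. Begain, the nearest, had 1.33 ± 0.161 CPM in R783H and 1.15 ± 0.0464 CPM in WT (log2 difference 0.21 ± 0.20, SE; adjusted p = 0.387, edgeR). Wdr25 (-0.31), Wars (-0.43), the tryptophanyl-tRNA synthetase, and Yy1 (-0.40), a zinc-finger regulator of transcription, fell, as did Eml1 (-1.04). Evl (0.25) and the neuronal cholesterol hydroxylase Cyp46a1 (1.80, at 20, 16 and 16 against 3, 6 and 2 counts) rose. Without WT B, Wdr25 was at -0.26, and without WT C, Evl was at 0.18, neither called. Slc25a47 (0.01), Slc25a29 (-0.27) and Degs2 (-0.12) did not pass.

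Beyond Dio3, 3 of the 10 nearest tested genes rose and 2 fell (5 of 10 called), with a median of 0.04 that ran from -0.04 to 0.12 over the settings. Cinp (-0.39) fell, as did the pseudogene Gm6988 (-0.28), whose reads may be shared with near-identical copies and which was at -0.09 and not called with the offset. Ppp2r5c (0.25), Zfp839 (0.91) and the dynein heavy chain Dync1h1 (0.70, a transcript of 14342 nt; 0.38 with the offset) rose. Hsp90aa1 (-0.12), Wdr20 (0.12), Mok (-0.05), B930059L03Rik (0.55) and Mpc1-ps (-0.17) did not pass, although Hsp90aa1 and Wdr20 were called with the length and GC offset (-0.14 and 0.16). Cyp46a1 was the neighbour with a log2 difference above 1 (1.53 to 2.25 with 1 library left out).

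**Figure D4:**
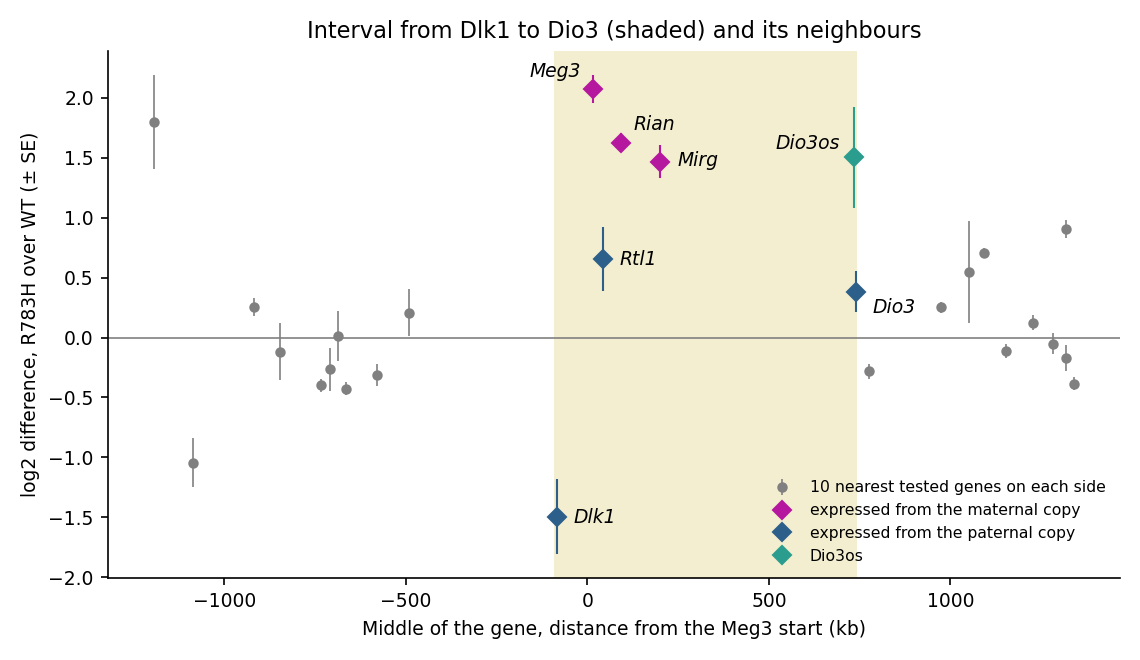
log2 difference (R783H over WT, error bars SE) against the distance of each gene's middle from the Meg3 start in kb, for the members (diamonds, coloured by the copy that expresses them as textbook background) and the 10 nearest tested genes on either side (grey). Inside the shaded region Meg3, Rian, Mirg and Dio3os lie between 1.47 and 2.07 and Dlk1 at -1.49; outside it Cyp46a1 (1.80) and Eml1 (-1.04) lie farthest from 0.

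Factors that act on the methylation and chromatin of imprinted control regions, those that keep methylation as well as the Tet enzymes and Tdg that remove it, were counted as a list, chosen with earlier results of these data known. Of 23 tested, 7 rose and 8 fell, which is 65.2% called against 64.5% of all tested genes. The median log2 difference was -0.05 and ran from -0.14 with the length and GC offset, where 3 rose and 12 fell, to 0.04 with library size alone. The largest difference was in Trim28, the corepressor that ZFP57 recruits to methylated control regions. It stood at 1862, 2039 and 1842 CPM in R783H and at 3758, 3495 and 3268 CPM in WT, and it fell by 0.87 on the log2 scale (SE 0.06; edgeR adjusted p = 3.98e-07). Zfp57 itself, named after its values were seen, did not pass (461 ± 24.9 against 475.5 ± 5.36 CPM, SD, n = 3 each; edgeR adjusted p = 0.415).

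Among the other factors of that list, the histone methyltransferase Ehmt2 (G9a) fell by 0.46 on the log2 scale. The chromatin protein Smchd1 (0.42), the 5-methylcytosine oxidase Tet2 (0.41) and the remodeller Atrx (0.45) rose. With the length and GC offset they were at 0.16, 0.12 and 0.08, and Atrx was then not called. Dppa3 (Stella), which protects maternal methylation in the egg and embryo and whose loss favours silencing of Meg3 in reprogrammed cells, had 4.63, 5.36 and 4.22 CPM in R783H against 1.39, 3.47 and 4.13 CPM in WT. Its edgeR adjusted p of 0.0497 for a log2 difference of 0.64 lay at the threshold, and without WT A the difference was 0.32 and not called.

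Polycomb repressive complex 2 (PRC2) places histone H3 lysine methylation and has been described to bind Meg3 RNA. Of its 12 subunits and cofactors, 4 rose and 6 fell (83.3% called, against 64.5% of all tested genes). The median was -0.16 and ran from -0.21 without R783H C to -0.08 with library size alone. With the length and GC offset 2 rose and 7 fell. The catalytic subunit Ezh2 fell by 0.51 on the log2 scale (145.8 ± 6.91 against 207.2 ± 4.49 CPM, SD, n = 3 each). Its paralogue Ezh1 rose by 0.79 (42.1 ± 0.813 against 24.3 ± 1.23 CPM). The histone-binding subunit Rbbp4 (-0.42) and the cofactors Phf19 (-1.06) and Epop (-0.92) fell, while Phf1 (0.49) rose.

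Genes on which the proteins of the region act formed a further list, of which 7 of 12 were tested. Of these, 5 rose and 1 fell (85.7% called, against 64.5% of all tested genes), with a median of 0.54 that was 0.36 with the length and GC offset. DLK1 resembles Notch ligands, and the receptors Notch1 (0.54), Notch2 (0.55) and Notch3 (0.63) rose whereas Notch4 fell by 0.96. With the offset Notch1 was at 0.36 and Notch2 at 0.31. Notch4 measured 10.2 ± 0.331 CPM with the R783H change and 19.9 ± 0.864 CPM without it (SD, n = 3 each; edgeR adjusted p = 8.23e-07). DIO3 clears the hormone of the thyroid hormone receptors, of which Thra rose by 0.29 and Thrb by 1.59, the latter from 6, 10 and 5 counts in WT to 33, 20 and 32 in R783H. Without WT C, Thra was at 0.22 and not called.

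Imprinted genes elsewhere in the genome moved both ways in either class, the maternally and the paternally expressed. Of 9 tested maternally expressed genes (of 15 listed), 4 rose and 2 fell (66.7% called, against 64.5% of all tested genes). Their median was 0.82, the value of a gene that was not called and had 3 to 23 counts per library. The median moved to 0.46 without WT C. H19 (0.88), the non-coding RNA of the Igf2 locus, rose from 1.57 ± 0.199 to 2.87 ± 0.298 CPM (SD, n = 3 each). Igf2r (0.94), Grb10 (0.98) and Ascl2 (1.10) rose as well. Phlda2, a placental growth regulator, fell by 1.64, and the cell-cycle inhibitor Cdkn1c fell by 0.78.

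Of 18 tested paternally expressed genes (of 25 listed), 7 rose and 7 fell (77.8% called, against 64.5% of all tested genes). Their median was 0.07 and ran from -0.15 with the length and GC offset to 0.21 without WT C. Peg12 (-1.18), Ndn (-1.10), Nnat (-1.03), Mcts2 (-0.79) and Mest (-0.42) fell. Sfmbt2 (0.86) and the antisense RNA Kcnq1ot1 (1.02, a transcript of 93092 nt) rose, the latter at 0.11 and not called with the length and GC offset. No difference between the maternally and the paternally expressed lists was tested.

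**Figure D5:**
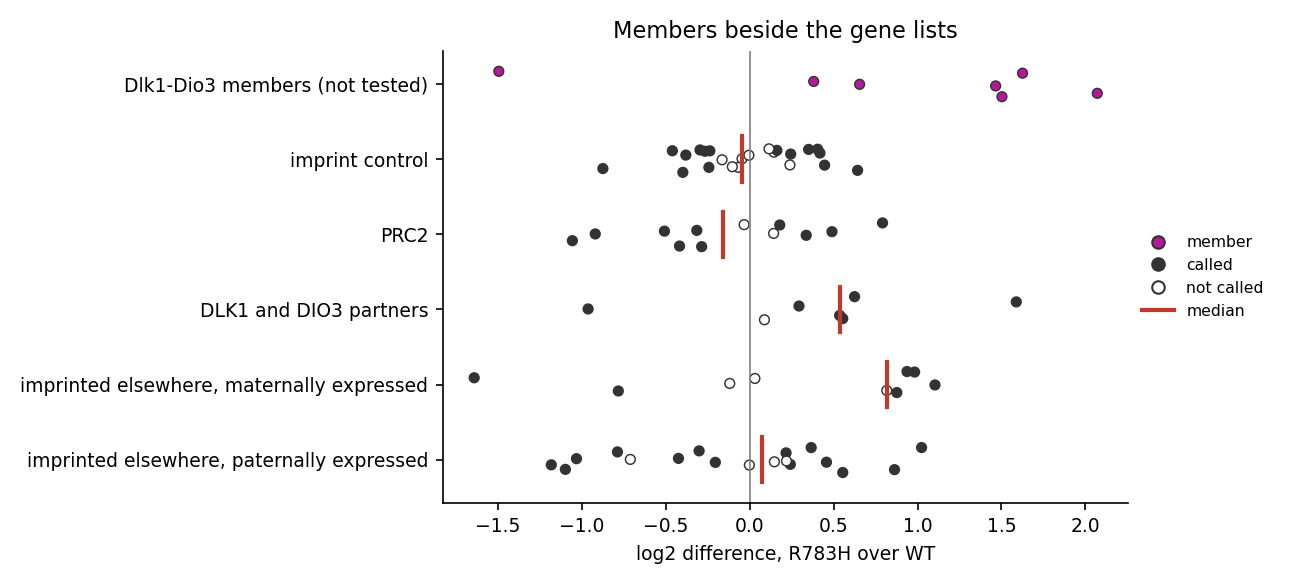
log2 difference (R783H over WT) of each Dlk1-Dio3 member (magenta, not tested) and of each tested gene in 5 lists, filled where edgeR's adjusted p was under 0.05 and open where it was not; the red bar is the list's median and the vertical scatter within a line has no meaning. The medians run from -0.16 (PRC2) to 0.82 (maternally expressed imprinted genes elsewhere).

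The genes whose profile over the 6 libraries was most like that of Meg3 were named by the root mean square difference of centred log2 CPM, among 14198 other tested genes. They were Neat1 (0.0844), the nuclear paraspeckle RNA, Ttn (0.117), which encodes titin, Hoxc12 (0.135), Aox1 (0.147) and Snhg11 (0.153). Since they were chosen for that profile, their differences are a description with no test. Neat1 had 160.5, 112.6 and 144.3 CPM in R783H and 30.1, 33.6 and 33.0 CPM in WT, a log2 difference of 2.11 ± 0.11 (SE). With the length and GC offset Neat1 was at 1.62, and Ttn went from 1.94 to 1.01. Aox1 went from 2.07 to 1.84, Snhg11 from 1.80 to 1.60 and Hoxc12 from 2.07 to 2.33. By the same measure Rian was at rank 44, Mirg at 128, Dio3os at 693, Rtl1 at 2048, Dio3 at 3895 and Dlk1 at 13967. The profiles share library and depth, and the ranks are a description without a test.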

How the data were processed

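Total RNA came from a Trizol extraction and was made into standard Illumina libraries, per the labels. The submitters' processing notes name CASAVA 1.4, HISAT2, SAMtools and the build mm10, with no role or order. The authors deposited raw whole-number counts per Entrez gene, with each column counted from its own alignment file per the file header; the counter, its annotation and its use of strand are not given in the sources used here. The libraries were assigned by their titles, and 0 columns were left unassigned. RefSeq (GRCm38.p6) gave symbols for 25275 of 27179 identifiers, positions, promoters and microRNAs; GENCODE M21 gave transcript lengths and exons.

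Genes were kept with edgeR's filterByExpr (minimum count 10, minimum total 15), scaled by TMM and fitted with the quasi-likelihood test (edgeR 4.0.16, R 4.3.3), with Benjamini-Hochberg adjustment over 14199 genes and a threshold of 0.05; the biological coefficient of variation was 5.45%. A log2 difference is R783H over WT, and its SE is that difference divided by the square root of the F statistic. The fit was also run on simulated counts in which few genes were changed, so that run does not bear on a contrast as broad as this one. Alternatives were RLE size factors, library size alone, no filter, at least 10 counts in every library, DESeq2 1.42.0, a length and GC offset (13758 genes), the replicate letter as a block, and each library left out. Members and gene lists were chosen with earlier results of these data known, and members carry no test. Named genes are all members; other rows of the region with at least 10 counts; the 10 nearest tested genes on either side; from each list its most abundant gene and, by size of difference, at most 6 called genes; and the 5 genes most like Meg3. Zfp57 was added after its values were seen. Depth and its floor of 3 counts cover counting error only.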

Additional observations from a re-analysis of the deposited data

How the results depend on the processing

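No member changed sign in any setting run. With the length and GC offset, Meg3 moved to 1.69 and Rian to 1.29, and Dio3os ranged from 1.08 to 2.07 when 1 library was left out. The other values of the members stayed within the spread between libraries (86 of 89 values); Dlk1 and Dio3os had no value where at least 10 counts in every library were required. The number of genes called, 9152, ran from 8161 (without WT B) to 9882 (without R783H B) with 1 library left out and from 8341 to 9380 in the other settings. With library size alone the median of all genes moved from 0.03 to 0.11, with 5673 genes higher and 3603 lower. The replicate block gave 9260 calls. Same-letter libraries correlated at -0.07, 0.00682 and 0.0851 in their deviations, and different-letter libraries at -0.133 to 0.126. No pairing by letter was seen, though 3 libraries per group cannot exclude a weak one.

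The calls of the 7 lists stayed within 1.5 times the reported count in all settings. Signs of small differences turned for Slc25a47 (-0.0079 with RLE size factors, -0.0090 with DESeq2, -0.0008 with the replicate block, and from -0.211 without R783H A to 0.0937 over the fits with 1 library left out, with -0.0458 without WT C), Degs2 (0.0127 with the length and GC offset and from -0.291 to 0.0808, without R783H B, with 1 library left out), Mok (0.0307 with library size alone) and Mpc1-ps (0.0332 with the offset), none of them called in the fit reported. Calls were lost for Dppa3 under 7 settings (0.32 to 0.76), for Atrx, Kcnq1ot1 and Gm6988 with the offset, for Thra and Evl without WT C and for Wdr25 without WT B. They were gained for Hsp90aa1 with DESeq2, with the offset and without WT A (-0.17 to -0.14), for Wdr20 with library size alone and with the offset (0.21 and 0.16) and for Mpc1-ps without R783H A (-0.30); the cause was not tested. Depth limits Dlk1, Rtl1 and Dio3os, which had 2 to 32 counts per library.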
